A study of Rattus norvegicus with 19 samples.

Results

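The comparison described here is the interaction of paricalcitol and enalapril in the left ventricle of the rat, that is, whether each gene's response to paricalcitol differed when enalapril was given at the same time. For every gene it is (combination minus enalapril) minus (paricalcitol minus vehicle), taken over all 14217 genes measured and resting on 15 of the 19 arrays of the study. The first bracket is called the response with enalapril and the second the response without enalapril. A gene whose 2 responses have opposite signs is called opposed when each has an unadjusted p under 0.05.

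Paricalcitol is a synthetic vitamin D analogue that activates the vitamin D receptor, a nuclear receptor that pairs with retinoid X receptors on DNA. Enalapril is converted in the body to an inhibitor of angiotensin-converting enzyme, which makes the vasoconstrictor angiotensin II. Vitamin D receptor signalling is known to lower the transcription of renin, the first enzyme of the angiotensin cascade, so the drugs bear on one pathway at different steps.

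All rats were male Dahl salt-sensitive animals (Harlan SS/Hsd), in which dietary salt raises blood pressure and the heart enlarges. They ate a diet of 6% NaCl from 6 weeks of age and were treated for 4 weeks after the first 5 weeks of it, up to 15 weeks of age, with the salt continued. The combination group (4 rats) received 90 ug of enalapril a day from an osmotic pump and 200 ng of paricalcitol into the abdomen 3 times a week. The enalapril group (3 rats) had the same pump and vehicle injections, the paricalcitol group (4 rats) had the same paricalcitol injections, and the vehicle group (4 rats) had vehicle injections alone. The design text gives pumps for the groups on enalapril only, so the pump and the drug cannot be told apart, and it states that this enalapril dose was chosen as one that did not significantly lower blood pressure. The other 4 arrays are a baseline group of untreated rats on the same diet at 11 weeks, which enter the model's estimate of spread and no contrast.

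Each array measured total RNA of 1 left ventricle, and values are log2(intensity + 16), so that a probe set with no signal sits at a floor of 4. Median deposited intensity on the 15 arrays was between 43.6 and 66.1. The 13 measured cardiomyocyte markers were bright on every array, and sarcolipin (Sln), which marks atrium in the rat, was at the floor on all 19 arrays. The atrial markers Myl7 and Myl4 averaged 5.92 and 7.87 and were at the floor on 0 arrays. The atrial list score varied within groups, from -0.69 in paricalcitol replicate 3 to 0.56 in paricalcitol replicate 4. Whether atrial tissue was present was not tested. Red cell markers differed within groups: 5 of the 15 arrays (combination replicates 2 and 3, enalapril replicate 1, paricalcitol replicates 2 and 3) had a red cell score, the mean deviation of 9 markers in log2, under -0.5. Animal numbers in the labels run in blocks that differ by group, so a cohort of rats and its treatment cannot be told apart. The labels do not say that equal replicate numbers are matched rats, and the small number of arrays limits precision.

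No gene passed the test for an interaction (limma, Benjamini-Hochberg adjusted p under 0.05; 0 of 14217 genes, 0%), and the smallest adjusted p was 0.113. At any p, 6916 genes (48.6%) lay above 0. At an unadjusted p under 0.05, 987 genes (6.94%) had an interaction, 540 above 0 (3.8%) and 447 below 0 (3.14%). The response with enalapril passed in no gene (0%; 754 genes or 5.3% at an unadjusted p under 0.05; smallest adjusted p 0.252). The response without enalapril passed in 2 genes (0.0141%; 1371 or 9.64% unadjusted). The genes below are therefore described by their values, and none is given as a gene on which the drugs were shown to interact.

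The 2 responses use different arrays, and across genes they were almost unrelated. Their correlation over the 14217 genes was 0.036, and over the 7108 genes above the median level it was 0.10; genes are not independent replicates. Of all genes, 6648 (46.8%) had responses of opposite sign. The opposed genes numbered 54 (0.38%): 37 were higher with paricalcitol on enalapril and lower with it alone, and 17 were the other way round. This lean turned without equalisation of the arrays, which gave 10 and 46. Genes with both responses in one direction at the same threshold numbered 64 (0.45%), 39 higher and 25 lower with paricalcitol in both, and which of the kinds was more numerous depended on the arrays and the scaling. Without paricalcitol replicate 2 there were 92 opposed genes and 65 of equal direction, without enalapril replicate 3 there were 67 and 53, and without combination replicate 2 there were 59 and 47. Without enalapril replicate 2 there were 33 and 57, and without equalisation of the arrays 56 and 35.

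**Figure D1:**
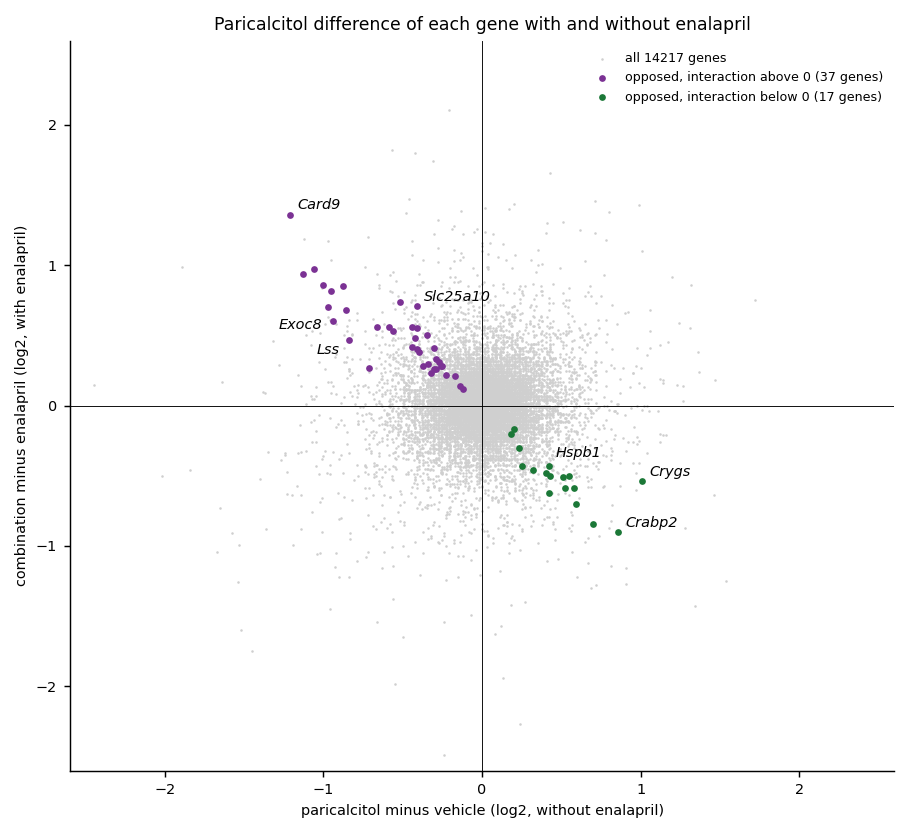
Each point is 1 gene, with the response without enalapril (paricalcitol minus vehicle, log2) on the horizontal axis and the response with enalapril (combination minus enalapril, log2) on the vertical axis. The grey cloud of 14217 genes has almost no slope (correlation 0.036); the 37 opposed genes with an interaction above 0 lie upper left and the 17 with one below 0 lie lower right.

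A stricter description asks that arrays do not overlap in either bracket. Combination and enalapril arrays did not overlap in 702 genes (4.94%), and paricalcitol and vehicle arrays in 717 (5.04%). Both held with opposite signs in 16 genes (0.113%), 9 above 0 and 7 below 0, and with equal signs in 21 (0.148%). The 9 were Slx9, Exoc8, Slc25a10, LOC102549203, Vamp1, Fam118b, Txnrd3, Pak4 and Fam76b, and the 7 were Crygs, Crabp2, Madd, Cct7, Faap20, Bspry and Cd200. Fam76b lies outside the naming rule and is listed only to complete the count.

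The order of the 4 group means is given as a description, since all 4 groups enter the definition of an opposed gene. With an interaction above 0, the signs alone make combination or vehicle highest and enalapril or paricalcitol lowest. Below 0 the signs make the reverse. Among the 37 with an interaction above 0, vehicle was highest and enalapril lowest in 15, and combination was highest and paricalcitol lowest in 14. In 6 more, vehicle was highest and paricalcitol lowest, and in 2 combination was highest and enalapril lowest. Among the 17 below 0, enalapril was highest and combination lowest in 6, paricalcitol highest and combination lowest in 6, enalapril highest and vehicle lowest in 4, and paricalcitol highest and vehicle lowest in 1. Opposed genes were picked by these same values, so this order and what follows describe them and are no separate test.

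Lss, lanosterol synthase, makes lanosterol, the first sterol of cholesterol synthesis, and had the smallest interaction p of all genes. It measured 6.44, 6.58, 6.08 and 7.04 in combination hearts, against 5.93, 6.13 and 6.15 in enalapril hearts. It measured 5.88, 5.97, 5.87 and 5.85 in paricalcitol hearts, against 6.75, 6.85, 6.73 and 6.61 in vehicle hearts. Paricalcitol alone lay below every vehicle heart, while combination replicate 3 overlapped the enalapril hearts. The response was 0.47 (SE 0.16) with enalapril and -0.84 (SE 0.15) without it, an interaction of 1.31 (SE 0.21, adjusted p 0.113, limma). Without combination replicate 3 the interaction was 1.46 and passed (adjusted p 0.00931, limma). The baseline mean of 5.83 lay beside the paricalcitol mean of 5.89, and a second Lss probe set was at the floor.

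Pmvk, phosphomevalonate kinase of the mevalonate pathway, was the other opposed sterol gene. Its values were 8.52, 8.46, 8.42 and 8.24 in combination hearts, against 8.20, 7.98 and 8.26 in enalapril hearts. They were 7.77, 8.29, 8.01 and 7.88 in paricalcitol hearts, against 8.16, 8.36, 8.31 and 8.32 in vehicle hearts. A single array overlapped in each bracket. The responses were 0.26 (SE 0.11) with enalapril and -0.30 (SE 0.10) without it, and the interaction was 0.56 (SE 0.15, adjusted p 0.425, limma).

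Of the 22 sterol synthesis genes measured, 15 had an interaction above 0 and 7 below. At an unadjusted p under 0.05 there were 5 above 0 (22.7%, against 3.8% of all genes) and 0 below 0. The median interaction was 0.16, against 0 over all genes, and it stayed between 0.02 and 0.25 in every alternative run with 1 value per gene. The median response was 0.17 with enalapril and -0.02 without it. Sc5d, sterol-C5-desaturase, averaged 7.74 ± 0.23 in combination hearts, against 7.33 ± 0.02 in enalapril hearts (SD, n = 4 and 3), and 7.46 ± 0.36 in paricalcitol hearts, against 7.74 ± 0.25 in vehicle hearts (SD, n = 4 each). Its interaction was 0.69 (SE 0.24), and 2 further Sc5d probe sets gave 0.49 and 1.05. Insig1, which holds the sterol sensor in the endoplasmic reticulum, differed mainly in the bracket without enalapril, at 0.04 with enalapril and -0.32 without it.

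The promoter of Lss is shown because the gene led the interaction and its pathway shares promoter elements. A CCAAT box, the site of the factor NF-Y that works beside sterol-responsive factors, is in capitals (ATTGG, which reads CCAAT on the other strand) in these 300 bases around the gene start (RefSeq, GRCr8, chr20:12118181-12118480, minus strand, written 5′ to 3′ along the gene).
Lss: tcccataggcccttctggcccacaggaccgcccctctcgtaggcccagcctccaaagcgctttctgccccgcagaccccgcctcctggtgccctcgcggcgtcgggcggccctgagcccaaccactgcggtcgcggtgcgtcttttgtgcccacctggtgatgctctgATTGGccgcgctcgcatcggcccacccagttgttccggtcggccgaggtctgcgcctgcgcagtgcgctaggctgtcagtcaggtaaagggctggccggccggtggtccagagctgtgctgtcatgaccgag
CCAAT, searched on both strands, was in 15 of the 18 sterol synthesis promoters found (83.3%) and in 37.7% of all 27457 promoters. The share was not particular to this list. It was 82.4% (14 of 17) in the unfolded protein response list described below, whose median interaction was -0.27. The sterol regulatory element TCACNCCAC, on either strand, was in 0 of the 18 and in 1.13% of all, which says only that these letters are not in these windows. Among the 50 opposed genes with a promoter entry, a CCAAT box was in 27 (54.0%), and the DR3 element bound by the vitamin D receptor was in 0, against 0.102% of all promoters. A match is a description of the letters and not a bound site.

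Slc25a10, the mitochondrial dicarboxylate carrier, measured 6.72, 6.57, 6.66 and 7.17 in combination hearts, against 6.14, 6.10 and 5.96 in enalapril hearts. It measured 6.07, 6.24, 6.12 and 5.99 in paricalcitol hearts, against 6.60, 6.80, 6.33 and 6.33 in vehicle hearts. Neither bracket overlapped, and enalapril and paricalcitol hearts shared one level. The responses were 0.71 (SE 0.19) with enalapril and -0.41 (SE 0.17) without it, with an interaction of 1.12 (SE 0.25, adjusted p 0.394, limma). A second, dimmer Slc25a10 probe set gave 0.33.

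Cidea, a lipid droplet protein, measured 11.29, 10.96, 11.06 and 11.06 in combination hearts, against 10.70, 10.75 and 11.00 in enalapril hearts. It measured 10.83, 10.95, 10.79 and 10.51 in paricalcitol hearts, against 11.22, 11.24, 11.20 and 10.88 in vehicle hearts. Both brackets overlapped slightly, through combination replicate 2 and vehicle replicate 4. Its responses were 0.28 with enalapril and -0.37 without it (interaction 0.64, SE 0.15), and the baseline mean of 10.59 lay below all 4 treated means. Cryl1, an enzyme of the glucuronate pathway, responded by 0.74 with enalapril and -0.52 without it (interaction 1.26, SE 0.25, adjusted p 0.291, limma). Its combination arrays ran from 7.34 to 7.98, above the enalapril arrays at 6.85 to 7.15, while paricalcitol arrays at 6.51 to 7.27 overlapped vehicle arrays at 7.07 to 7.72.

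Smaller opposed differences were seen in Atp5f1d, a subunit of ATP synthase, and Flad1, which makes the cofactor FAD. Atp5f1d averaged 12.81 ± 0.04 in combination hearts, against 12.69 ± 0.02 in enalapril hearts, and 12.61 ± 0.08 in paricalcitol hearts, against 12.72 ± 0.08 in vehicle hearts (SD). Its interaction was 0.24 (SE 0.07). Flad1 had responses of 0.30 and -0.34 and an interaction of 0.64 (SE 0.18). These were single genes of their pathways: in the respiratory chain list 19 of 34 members lay above 0 with a median of 0.01, in fatty acid oxidation 17 of 30 with a median of 0.01, and in the TCA cycle 11 of 20 with a median of 0.02. Each of the 3 lists held 1 member above 0 at an unadjusted p under 0.05. These were 2.94%, 3.33% and 5% of members, near the 3.8% of all genes. In the order of these lists the one with the smallest p was Atp5f1d, Slc25a20 (the carnitine carrier, interaction 0.40) and Idh3a (isocitrate dehydrogenase, 0.24).

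Atp6v0e2, a subunit of the proton pump of acidic vesicles, measured 8.91, 8.72, 8.76 and 8.88 in combination hearts, against 8.64, 8.23 and 8.76 in enalapril hearts. It measured 7.98, 8.23, 8.44 and 8.29 in paricalcitol hearts, against 8.70, 9.05, 9.01 and 9.03 in vehicle hearts. Paricalcitol hearts lay below every vehicle heart, and enalapril replicate 3 reached the combination range. The responses were 0.27 (SE 0.12) with enalapril and -0.71 (SE 0.11) without it, and the interaction was 0.99 (SE 0.17, adjusted p 0.113, limma).

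Vamp1, a vesicle fusion protein, measured 8.23, 8.42, 8.14 and 8.42 in combination hearts, against 7.60, 7.59 and 8.04 in enalapril hearts. It measured 7.64, 8.01, 7.97 and 8.09 in paricalcitol hearts, against 8.37, 8.30, 8.58 and 8.22 in vehicle hearts. No arrays overlapped in either bracket. The interaction was 1.00 (SE 0.23, adjusted p 0.394, limma), from responses of 0.56 and -0.44. Of the other Vamp1 probe sets, one gave 0.74 and the dimmest gave -0.19.

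Exoc8, a subunit of the exocyst that tethers secretory vesicles, measured 5.69, 5.36, 5.59 and 5.62 in combination hearts, against 5.29, 4.96 and 4.65 in enalapril hearts. It measured 4.00, 4.62, 4.31 and 4.80 in paricalcitol hearts, against 5.07, 5.12, 5.91 and 5.39 in vehicle hearts. The arrays were apart in both brackets, although 1 paricalcitol array sat at the floor, so the response of -0.94 without enalapril is sensitive to the value added before the logarithm. The response with enalapril was 0.60, and the interaction was 1.54 (SE 0.30, adjusted p 0.261, limma). Slx9, named after a yeast ribosome biogenesis factor, was nearer still to the floor: 3 of 4 paricalcitol arrays were at or below 4.20 and 2 of 3 enalapril arrays at or below 4.01, so its interaction of 1.77 is a poorly measured size.

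**Figure D2:**
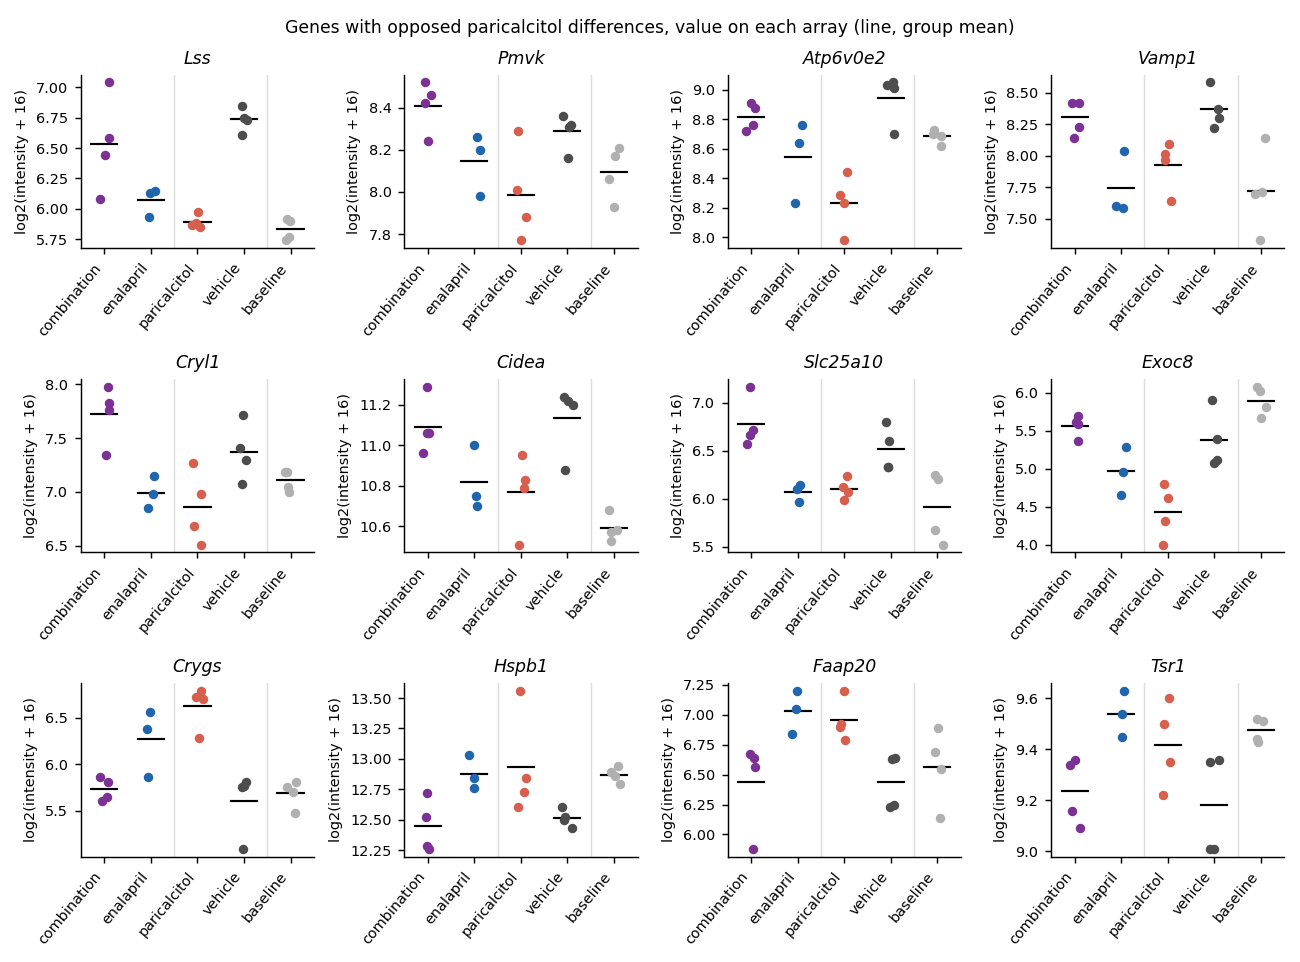
Each panel shows 1 opposed gene, each point 1 array in log2(intensity + 16) and each line a group mean, with the baseline group for reference. In the upper 8 panels combination lies above enalapril and paricalcitol below vehicle; in Crygs, Hspb1, Faap20 and Tsr1 both differences are reversed.

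The remaining brighter opposed genes above 0 that the rule named were Fam118b, Thap4, Zkscan1 and Anapc16, with interactions of 0.62, 0.55, 0.56 and 0.86. Anapc16 is a subunit of the anaphase-promoting complex. Of these, Fam118b did not overlap in either bracket: its combination arrays ran from 7.31 to 7.53, against 6.90 to 7.28 in enalapril hearts, and its paricalcitol arrays from 6.97 to 7.22, against 7.31 to 7.57 in vehicle hearts. Zkscan1 is less settled, since 2 further probe sets each gave 0.16. Pak4, a protein kinase, and Txnrd3, a thioredoxin reductase, did not overlap in either bracket, with interactions of 0.49 and 0.39, but their responses with enalapril missed the unadjusted threshold. Card9, an adaptor of innate immune receptors singled out after its values were seen, had the largest opposed interaction at 2.57, with an SE of 0.76.

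Crygs led the genes below 0. It encodes gamma-S crystallin, a protein known from the lens. It measured 5.60, 5.81, 5.86 and 5.65 in combination hearts, against 6.38, 6.56 and 5.86 in enalapril hearts. It measured 6.79, 6.72, 6.70 and 6.28 in paricalcitol hearts, against 5.81, 5.77, 5.76 and 5.09 in vehicle hearts. Either drug alone went with a higher level, and combination hearts matched vehicle hearts; the brackets did not overlap, though enalapril replicate 3 and combination replicate 3 were equal after rounding. The responses were -0.54 (SE 0.19) and 1.01 (SE 0.18), and the interaction was -1.55 (SE 0.26, adjusted p 0.113, limma). Without equalisation of the arrays it was -1.73 and passed (adjusted p 0.00215, limma).

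Hspb1, the small heat shock protein HSP27, measured 12.52, 12.26, 12.72 and 12.28 in combination hearts, against 12.76, 13.03 and 12.84 in enalapril hearts. It measured 12.84, 12.60, 12.73 and 13.56 in paricalcitol hearts, against 12.50, 12.43, 12.60 and 12.52 in vehicle hearts. Combination lay below enalapril on every array, and paricalcitol replicate 4 stood above the other paricalcitol hearts. The responses were -0.43 (SE 0.17) with enalapril and 0.42 (SE 0.16) without it, with an interaction of -0.85 (SE 0.24, adjusted p 0.425, limma). Cct7, a subunit of the chaperonin that folds actin and tubulin, did not overlap in either bracket but missed the threshold for an opposed gene, with combination arrays at 10.12 to 10.15, against 10.16 to 10.24 in enalapril hearts, and paricalcitol arrays at 10.21 to 10.40, against 10.07 to 10.14 in vehicle hearts. Its interaction was -0.24 (SE 0.06).

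The heat shock and chaperone list as a whole was split, with 6 of 17 members above 0, 11 below and a median of -0.08, a sign that turned in some alternatives (range -0.18 to 0.04). Bag3, a co-chaperone of heart muscle, lay on the other side of 0 from Hspb1, at 0.39.

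Tsr1, a maturation factor of the small ribosomal subunit, measured 9.16, 9.34, 9.09 and 9.36 in combination hearts, against 9.63, 9.45 and 9.54 in enalapril hearts. It measured 9.22, 9.50, 9.35 and 9.60 in paricalcitol hearts, against 9.01, 9.36, 9.35 and 9.01 in vehicle hearts. Only the bracket with enalapril was free of overlap. The interaction was -0.54 (SE 0.14), and it was -0.37 (SE 0.11) for Nxf1, the main mRNA export receptor, -0.38 (SE 0.11) for Spcs3, a subunit of signal peptidase, and -0.93 (SE 0.30) for Ifrd2. Faap20, a protein of the Fanconi anaemia DNA repair complex, was apart in both brackets, with 5.88 to 6.67 in combination hearts, against 6.84 to 7.20 in enalapril hearts, and 6.79 to 7.20 in paricalcitol hearts, against 6.23 to 6.64 in vehicle hearts (interaction -1.11, SE 0.28).

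The other genes below 0 with no overlap were Crabp2, Madd, Bspry and Cd200. Crabp2, which carries retinoic acid to its nuclear receptor, averaged 4.72 ± 0.33 in combination hearts, against 5.62 ± 0.24 in enalapril hearts (SD, n = 4 and 3). It averaged 5.98 ± 0.68 in paricalcitol hearts, against 5.12 ± 0.25 in vehicle hearts (SD, n = 4 each), with an interaction of -1.76 (SE 0.39). Paricalcitol replicate 4 at 6.98 carried much of that paricalcitol mean, the other 3 being 5.54 to 5.78. Madd, an exchange factor for Rab3, had an interaction of -0.68, but a second probe set gave -0.13, and for Bspry the values were -1.28 and -0.18. Cd200, which restrains myeloid cells, had an interaction of -0.47, with a response of -0.14 on enalapril that missed the unadjusted threshold.

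Gene lists were next read for direction, beside the all-gene median of 0. A scaling of the arrays moves this reference: without equalisation the all-gene median interaction was -0.14 and the calls below the unadjusted threshold were 102 above 0 and 691 below 0, and with median centring it was 0.09 with 837 above and 251 below. List medians therefore count only relative to such shifts, and the ranges given cover these scalings. Scores below are the mean log2 deviation of a list's members on an array. Member counts at an unadjusted p under 0.05 are read beside 3.8% of all genes above 0 and 3.14% below 0.

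Smooth muscle and pericyte genes, not all of which are particular to vessel walls, had the lowest median interaction of the 37 lists. Of 17 members, 14 were below 0 and 3 above, and 6 (35.3%, against 3.14% of all genes) were below 0 at an unadjusted p under 0.05, with 0 above. The median interaction was -0.54, between -0.73 and -0.26 in every alternative run with 1 value per gene. The median response was -0.09 with enalapril and 0.25 without it, where 15 of 17 members were higher with paricalcitol. Scores were -0.18, -0.07, -0.02 and -0.17 in combination hearts, against 0.25, -0.14 and -0.05 in enalapril hearts. They were 0.05, 0.20, 0.07 and 0.18 in paricalcitol hearts, against -0.06, -0.15, -0.18 and -0.10 in vehicle hearts. Paricalcitol and vehicle hearts were apart, while combination and enalapril hearts overlapped. In bulk tissue, fewer cells of a type and less RNA per cell cannot be told apart.

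Kcnj8, a potassium channel subunit of pericytes and vessel muscle, measured 8.38, 8.13, 7.96 and 8.13 in combination hearts, against 8.39, 8.09 and 8.09 in enalapril hearts. It measured 8.36, 8.49, 8.53 and 8.71 in paricalcitol hearts, against 8.12, 7.87, 7.88 and 7.97 in vehicle hearts. The first pair overlapped and the second did not, so this is a gene that differed without enalapril and did not reverse with it (responses -0.04 and 0.56, interaction -0.60, SE 0.14, adjusted p 0.394, limma). The same shape was seen in Myl9, myosin light chain 9, at -0.06 with enalapril and 0.53 without it, and in Tpm2, beta-tropomyosin, at -0.19 and 0.48. Tagln, transgelin, and Acta2, smooth muscle actin, had responses of -0.34 and -0.12 with enalapril and 0.59 and 0.54 without it. A second Tpm2 probe set gave an interaction of -0.16, against -0.67 for the first. None of the 17 members was opposed.

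Endothelial genes leaned the same way less far, with 11 of 13 below 0, 1 of them at an unadjusted p under 0.05, and a median of -0.18 (range -0.32 to -0.09). That gene was Podxl, a podocalyxin of the vessel surface, with responses of 0.03 with enalapril and 0.41 without it. The fibroblast list had a median of -0.04 and its sign varied over the alternatives, from -0.17 to 0.27.

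**Figure D3:**
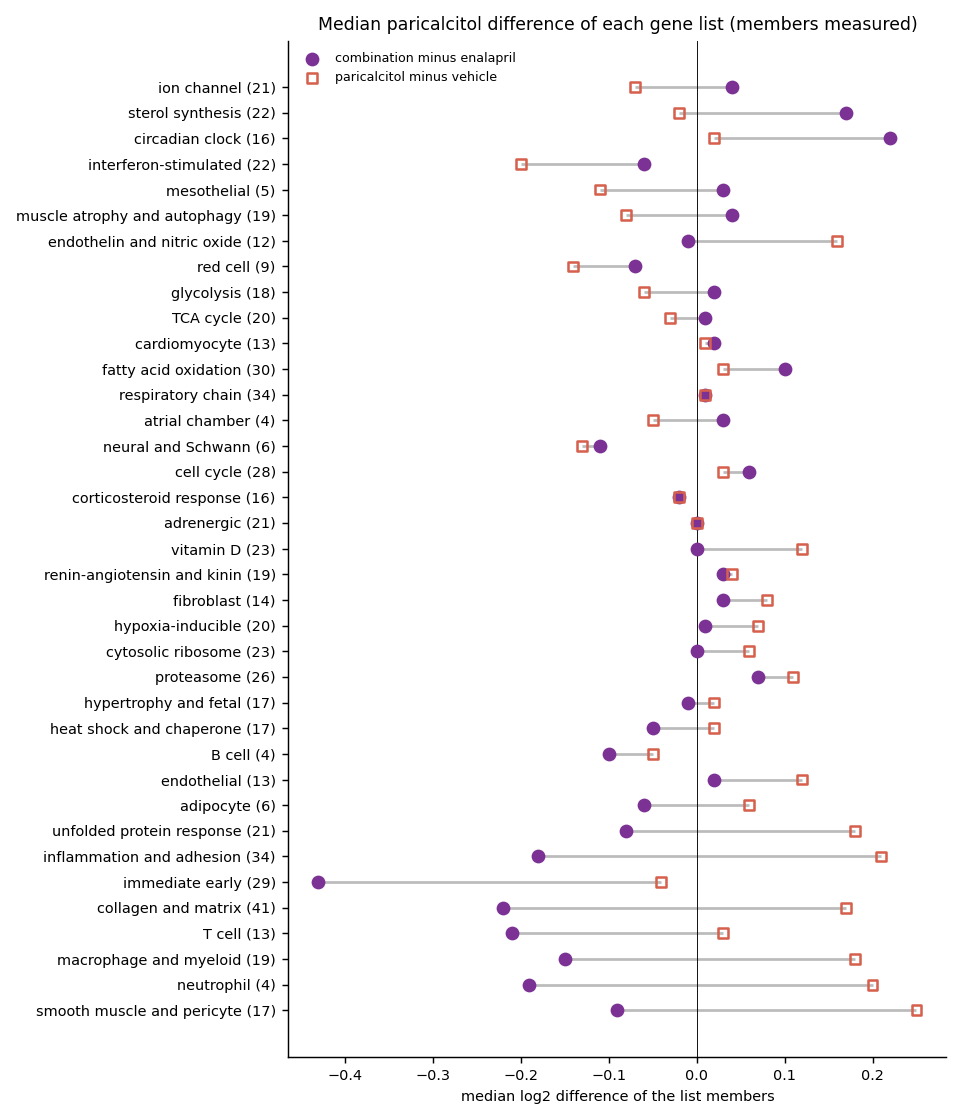
Median response of each gene list on the log2 axis, with filled circles for combination minus enalapril and open squares for paricalcitol minus vehicle, and the number of measured members in brackets. Lists run from the highest median interaction at the top to the lowest at the bottom; smooth muscle, myeloid, matrix and inflammation lists have the circle left of 0 and the square right of it.

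Collagen and matrix genes had a median interaction of -0.32 (range -0.51 to -0.17), and 34 of 41 were below 0. At an unadjusted p under 0.05, 3 were below 0 (7.32%, against 3.14% of all genes), with 0 above. The median response was -0.22 with enalapril and 0.17 without it. Serpinh1, the collagen chaperone HSP47, measured 10.60, 10.70, 10.76 and 10.21 in combination hearts, against 11.06, 10.93 and 11.06 in enalapril hearts. It measured 10.53, 10.65, 11.30 and 11.29 in paricalcitol hearts, against 10.20, 10.91, 10.34 and 10.56 in vehicle hearts. Combination hearts lay below every enalapril heart, and paricalcitol hearts overlapped vehicle hearts. The interaction was -0.89 (SE 0.29, adjusted p 0.498, limma), and a second probe set gave -0.81. Col18a1 and Col16a1, minor collagens of basement membrane and matrix, had interactions of -0.75 and -0.40. The main fibrillar collagens were not resolved: Col1a1 was at -0.35 (SE 0.54) and Col3a1 at -0.15 (SE 0.39), and both lay above 0 without paricalcitol replicate 3, at 0.01 and 0.11. Fn1, fibronectin, was at -0.81 (SE 0.51).

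Inflammation and adhesion genes had a median of -0.31 (range -0.47 to -0.20), with 27 of 34 below 0 but only 1 (2.94%) there at an unadjusted p under 0.05 and 1 above. Vcam1, the adhesion molecule that captures leukocytes on endothelium, measured 7.48, 6.98, 7.16 and 7.38 in combination hearts, against 7.82, 7.69 and 7.51 in enalapril hearts. It measured 7.53, 7.46, 8.07 and 8.43 in paricalcitol hearts, against 7.19, 7.63, 7.03 and 7.14 in vehicle hearts. The first pair did not overlap, and the second overlapped through vehicle replicate 2. The responses were -0.42 (SE 0.21) and 0.62 (SE 0.20) and the interaction -1.05 (SE 0.29, adjusted p 0.425, limma). Tnf was the member above 0, at 0.87, on values between 4.00 and 5.47 close to the floor. Cxcl12, a chemokine of stromal cells, was higher in both brackets, by 0.24 with enalapril and by 0.70 without it.

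Macrophage and myeloid markers lay below 0 in 17 of 19 (median -0.47, range -0.66 to -0.25). At an unadjusted p under 0.05 there was 1 (5.26%, against 3.14% of all genes): Itgb2, the beta-2 integrin chain of leukocytes, at -1.32 (SE 0.43). T cell markers lay below 0 in 11 of 13 (median -0.33, range -0.53 to -0.05). At that threshold there were 3 (23.1%, against 3.14% of all genes): Cd2, Cd5 and Lck, at -1.27, -0.64 and -0.50. Summed myeloid intensity ran from 5753 to 13300 in combination hearts, against 8870 to 12578 in enalapril hearts, and from 6581 to 14728 in paricalcitol hearts, against 8057 to 10634 in vehicle hearts. Summed T cell intensity was far lower, from 381 to 584 in combination hearts, against 559 to 637 in enalapril hearts, and from 438 to 552 in paricalcitol hearts, against 373 to 531 in vehicle hearts. Itgam was at the floor on 13 of 19 arrays, and Cd3d, Cd3g and Trat1 on 6, 8 and 11. Smooth muscle marker sums ran from 16759 to 19995 in combination hearts, against 17156 to 20672 in enalapril hearts, and from 18839 to 20885 in paricalcitol hearts, against 18031 to 18490 in vehicle hearts. Des, the brightest of these members at a mean of 13.27, weighs most in the sums, so they do not measure vessel muscle alone. Whether cell composition had a part in the matrix, adhesion and vessel values was not tested.

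Genes of the unfolded protein response, the programme that enlarges folding capacity in the endoplasmic reticulum, lay below 0 in 17 of 21, with a median interaction of -0.27 (range -0.40 to -0.18). At an unadjusted p under 0.05 there were 4 below 0 (19.0%) and 1 above (4.76%), against 3.14% and 3.8% of all genes. The median response was -0.08 with enalapril and 0.18 without it, where 18 of 21 members were higher with paricalcitol. Hspa5, the chaperone BiP at the centre of the programme, measured 11.66, 11.77, 11.56 and 11.32 in combination hearts, against 11.68, 11.91 and 11.72 in enalapril hearts. It measured 11.63, 11.43, 12 and 12.04 in paricalcitol hearts, against 11.44, 11.59, 11.37 and 11.52 in vehicle hearts. Groups overlapped in both brackets, and paricalcitol replicates 3 and 4 were the high hearts. The interaction was -0.49 (SE 0.19, adjusted p 0.628, limma). Pdia3, a disulphide isomerase, and Edem1, which sends misfolded glycoproteins to degradation, were at -0.32 and -0.43.

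**Figure D4:**
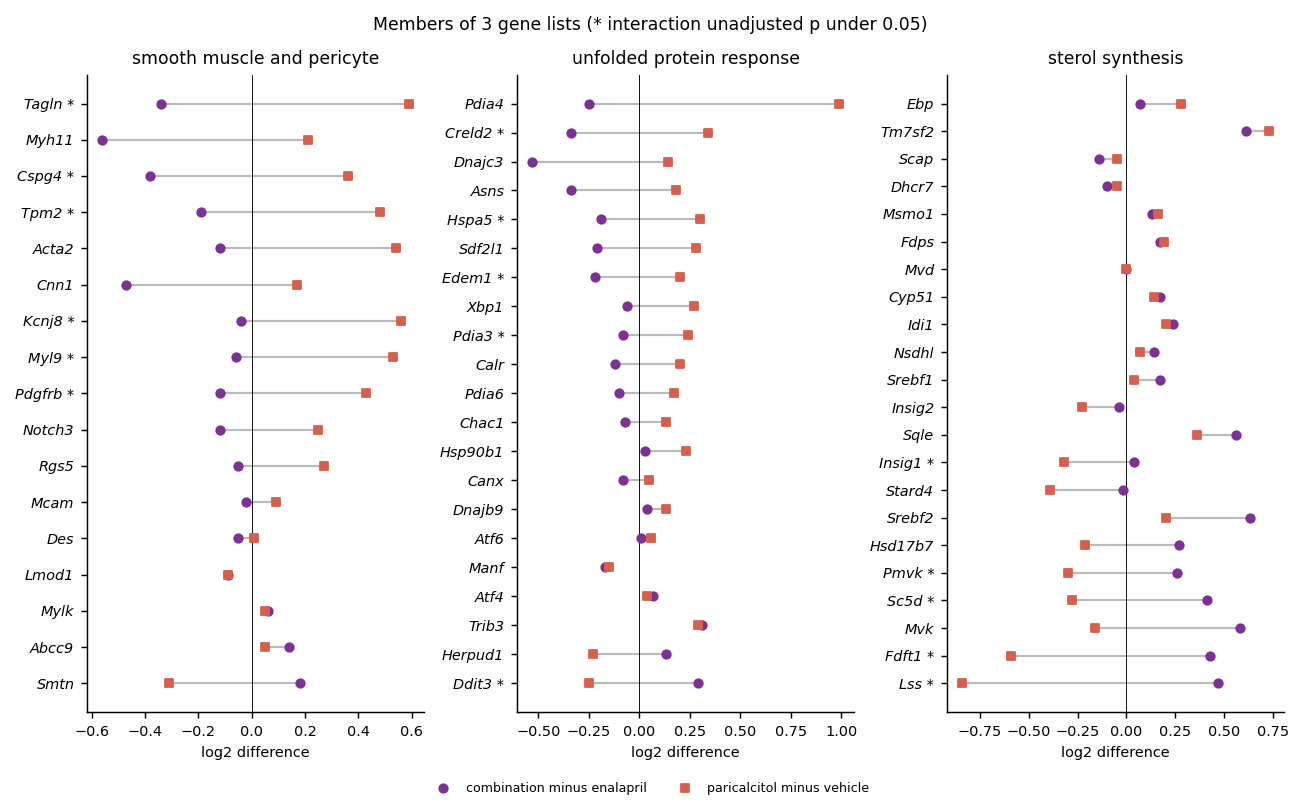
Members of 3 lists with their response with enalapril (circles) and without it (squares) on the log2 axis, sorted by interaction, an asterisk marking an unadjusted interaction p under 0.05. Smooth muscle and unfolded protein response members mostly have the square to the right of the circle, and Lss, Pmvk and Sc5d of the sterol list have it to the left.

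The promoters of Hspa5 and Serpinh1 are shown because the 2 genes stand for the folding and the collagen groups and carry elements known for stress induction. Capitals mark the ER stress response element, a CCAAT box spaced from CCACG, in Hspa5 (RefSeq, GRCr8, chr3:38452766-38453065, plus strand) and the heat shock element, made of alternating TTC and GAA units, in Serpinh1 (chr1:163062927-163063226, minus strand), each window written 5′ to 3′ along the gene.
Hspa5: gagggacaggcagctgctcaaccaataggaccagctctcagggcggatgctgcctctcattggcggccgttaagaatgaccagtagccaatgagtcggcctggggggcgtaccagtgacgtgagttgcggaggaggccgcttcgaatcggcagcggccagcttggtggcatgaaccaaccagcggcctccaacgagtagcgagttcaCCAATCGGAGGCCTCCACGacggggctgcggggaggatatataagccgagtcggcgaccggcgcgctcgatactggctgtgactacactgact
Serpinh1: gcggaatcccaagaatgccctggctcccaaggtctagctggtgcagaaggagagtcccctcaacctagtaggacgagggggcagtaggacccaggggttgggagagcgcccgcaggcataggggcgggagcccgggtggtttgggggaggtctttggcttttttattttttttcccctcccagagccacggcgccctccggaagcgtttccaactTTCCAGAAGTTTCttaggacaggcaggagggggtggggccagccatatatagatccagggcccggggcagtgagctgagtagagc
On either strand, the first element was in 7 of the 17 unfolded protein response promoters found (41.2%), against 0.0765% of all 27457, and it contains a CCAAT box. The second was in 4 of the 15 heat shock list promoters (26.7%), against 0.736% of all; Serpinh1 is on the matrix list and not among these. Neither share says that a factor was bound in these hearts.

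Immediate early genes, which answer a stimulus within minutes, had no member at an unadjusted p under 0.05. Of 29, 24 were below 0 and the median was -0.32 (range -0.68 to -0.02). Scores were -0.07, -0.34, -0.28 and -0.22 in combination hearts, against -0.25, 0.87 and 0.09 in enalapril hearts. They were -0.06, -0.42, -0.30 and 0.36 in paricalcitol hearts, against -0.08, 0.18, -0.09 and -0.06 in vehicle hearts. Enalapril replicate 2 stood far above all others, and without it Fos lay at 0.12, against -0.82 (SE 1.05) with it. Egr1 was at -1.69 (SE 0.96) and Junb at -0.85 (SE 0.43).

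Corticosteroid-responsive genes had a median of 0 with 8 of 16 on each side. At an unadjusted p under 0.05, 4 were below 0 (25.0%, against 3.14% of all genes). Cdkn1a, the cell cycle inhibitor p21, measured 9.68, 9.97, 10.47 and 9.85 in combination hearts, against 10.35, 10.74 and 10.50 in enalapril hearts. It measured 10.01, 10.43, 10.45 and 10.59 in paricalcitol hearts, against 10.11, 9.92, 9.94 and 10.17 in vehicle hearts. Single arrays, combination replicate 3 and paricalcitol replicate 1, overlapped the opposite group. The responses were -0.53 (SE 0.17) with enalapril and 0.33 (SE 0.16) without it, for an interaction of -0.87 (SE 0.23, adjusted p 0.416, limma), and a second probe set gave -0.80. Sgk1, a kinase of sodium transport, was at -1.22 (SE 0.49) and Nr3c1, the glucocorticoid receptor, at -0.26.

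Proteasome genes showed small differences in one direction in both brackets: 22 of 26 were higher in combination than in enalapril hearts, and 22 of 26 higher in paricalcitol than in vehicle hearts. Their median interaction was -0.07 (range -0.21 to 0.01). At an unadjusted p under 0.05 there were 3 (11.5%, against 3.14% of all genes below 0): Psmd2, Psmc4 and Psma5, at -0.27, -0.27 and -0.23. Of the cytosolic ribosome genes 20 of 23 lay below 0, by a median of -0.06 whose sign varied (range -0.17 to 0.05), with Rpl14 at -0.40.

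The targets of the drugs themselves gave no opposed response. The renin-angiotensin and kinin list had a median interaction of -0.02 with 8 of 19 above 0, and 1 member below 0 at an unadjusted p under 0.05, Mme (neprilysin, which degrades kinins and natriuretic peptides), at -0.52 on values of at most 4.91. Ace, the enzyme that enalapril's product inhibits, averaged 7.35 ± 0.61 in combination hearts, against 7.87 ± 0.37 in enalapril hearts (SD, n = 4 and 3), and 7.64 ± 0.39 in paricalcitol hearts, against 8.06 ± 0.40 in vehicle hearts (SD, n = 4 each). Both differences were downward, with responses of -0.52 and -0.42 and an interaction of -0.10 (SE 0.43). Agtr1a, the type 1 angiotensin receptor, was at -0.43 (SE 0.33). The vitamin D list had a median of -0.01 with 8 of 23 above 0, and 1 member, Cdkn1a, below 0 at the unadjusted threshold. Vdr, the receptor of paricalcitol, averaged 5.91 ± 0.18 in combination hearts, against 5.80 ± 0.35 in enalapril hearts (SD), and 5.57 ± 0.45 in paricalcitol hearts, against 5.60 ± 0.25 in vehicle hearts (SD), an interaction of 0.15 (SE 0.31).

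Of the markers of hypertrophy, Nppa, atrial natriuretic peptide, was near the top of the scale on all arrays, at 14.09 to 14.42, and its interaction of 0.00 (SE 0.10) does not show that the responses were alike. Nppb, brain natriuretic peptide, was at -0.17 (SE 0.32). Myh6, the fast myosin heavy chain, measured 13.73, 14.02, 13.73 and 13.41 in combination hearts, against 13.26, 12.14 and 11.47 in enalapril hearts. It measured 12.04, 13.38, 13.63 and 13.16 in paricalcitol hearts, against 11.36, 13.04, 11.75 and 12.10 in vehicle hearts. Its mean was higher with paricalcitol in both brackets, by 1.43 (SE 0.52) with enalapril and 0.99 (SE 0.48) without it, and the interaction of 0.44 (SE 0.71) was smaller than its error. Myh7, the slow heavy chain, was at -0.08 (SE 0.09). Ion channel genes had a median interaction of 0.16 (range 0 to 0.31), with 1 of 21 on each side of 0 at an unadjusted p under 0.05. Scn4b, a sodium channel subunit, responded by 1.26 with enalapril and -0.19 without it (interaction 1.45, SE 0.60), and Gja1, connexin 43, by -0.06 and 0.21 (interaction -0.26, SE 0.08).

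**Figure D5:**
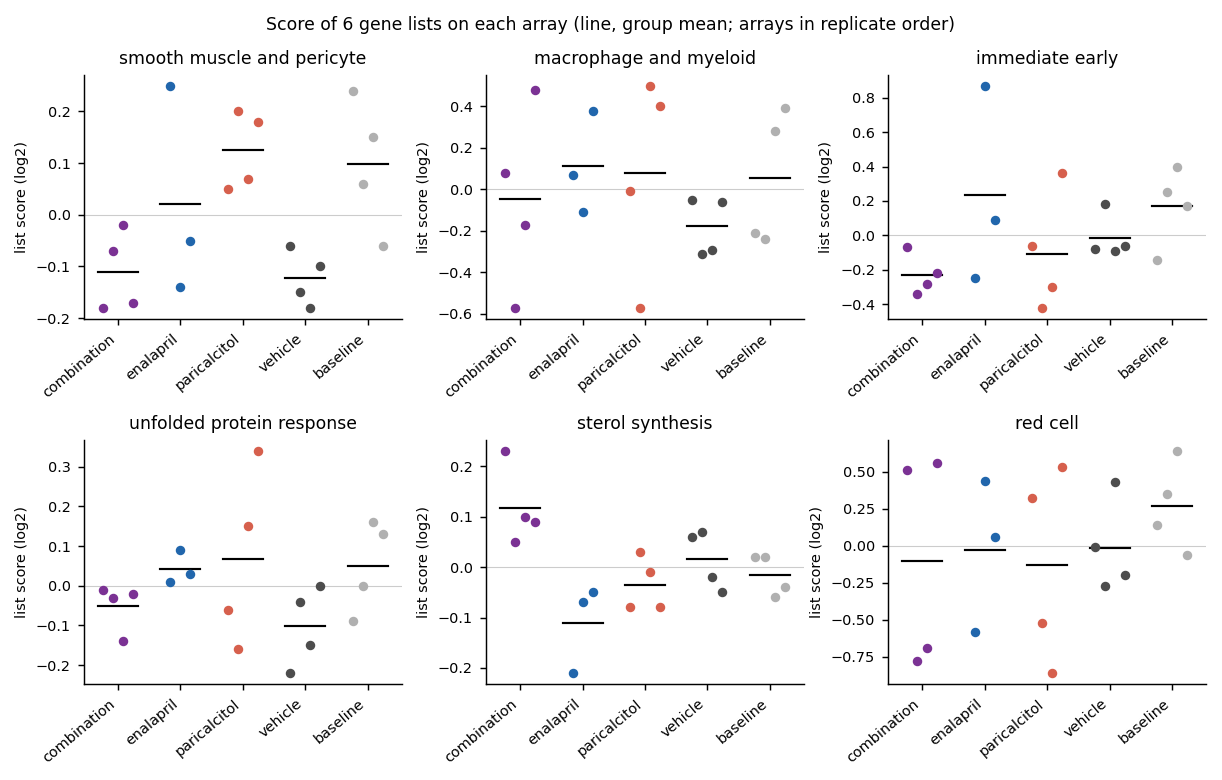
Score of 6 lists on each array (mean log2 deviation of the members from their mean over arrays), points in replicate order and lines at group means. Smooth muscle scores of paricalcitol hearts lie above all vehicle hearts, sterol scores of combination hearts above all enalapril hearts, and red cell scores spread within each group.

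The genes that passed without enalapril were not opposed. Ecrg4, a secreted peptide precursor, measured 6.52, 6.60, 6.62 and 6.82 in combination hearts, against 6.83, 7.02 and 7.08 in enalapril hearts. It measured 5.99, 5.91, 6.42 and 5.85 in paricalcitol hearts, against 6.85, 7.42, 7.24 and 7.31 in vehicle hearts. Neither pair overlapped, and both differences were downward. It fell by 1.16 without enalapril (SE 0.15, adjusted p 0.0139, limma), and with enalapril the response was -0.34 (SE 0.16, adjusted p 0.908, limma); the difference between the responses, 0.83 (SE 0.22), did not pass (adjusted p 0.416, limma). Atp6v1d, another subunit of the vesicular proton pump, named because it completes the count, fell by 0.28 without enalapril (adjusted p 0.0358, limma) and had a response of -0.03 with it. No gene passed in that bracket when replicate 4 of the paricalcitol hearts, or replicate 3 or 4 of the vehicle hearts, was left out, and 71 passed with median centring.

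Sterol scores were 0.23, 0.05, 0.10 and 0.09 in combination hearts, against -0.21, -0.07 and -0.05 in enalapril hearts. They were -0.08, 0.03, -0.01 and -0.08 in paricalcitol hearts, against 0.06, 0.07, -0.02 and -0.05 in vehicle hearts. Combination and enalapril hearts were apart, and paricalcitol and vehicle hearts overlapped, so this list differed in the bracket opposite to that of the smooth muscle list. A comparison of the lists themselves was not tested. Medians of the lists not named above ran from -0.49 in 4 neutrophil markers to 0.16 in 16 circadian clock genes.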

How the data were processed

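The deposited values are linear intensities by probe set; how the authors made them is not given in the sources used here. Of 31099 probe sets, 20826 name 1 gene in the platform annotation, 436 several, 9780 none, and 57 are controls. Each array held 16 to 18.2% negative intensities, as deposited, which shows a background subtraction by the authors.

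Arrays were quantile normalised, negatives set to 0 and log2(value + 16) taken. A gene took its probe set with the highest mean. limma 3.58.1 (R 4.3.3) fitted group means over 19 arrays (eBayes with trend), and p was adjusted by Benjamini-Hochberg over 14217 genes. The fit was tested on simulated data.

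Genes were named as the smallest interaction p among opposed genes, brighter (up to 10 a direction) or without overlap (up to 8), the 3 smallest in each list (37 lists, 19 of them used for names), and a panel. Members and lists were chosen with earlier results of these data known. Alternatives changed scaling, pseudocount, filter, probe set, fit and arrays.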

Additional observations from a re-analysis of the deposited data

Results flagged for a closer look

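In groups of 4 arrays, a value was looked at again where its gap to the nearest other array exceeded Dixon's 95% limit as a share of the group's range. This held for 16 of 295 gene values and 5 of 57 list scores. By chance 1 in 20 independent values would be flagged, but these values share arrays and list members and are not independent. The enalapril group of 3 could not be checked.

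In combination hearts, Cxcl12 (11.37), Myl9 (9.93) and Sgk1 (9.59) were high and Insig1 (8.84) was low in replicate 4. Faap20 (5.88) was low in replicate 2. The T cell score (-0.31) was low in replicate 1 and the unfolded protein response score (-0.14) in replicate 3.

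In paricalcitol hearts, Crabp2 (6.98) stood high in replicate 4, Kcnj3 (7.48), a potassium channel subunit, in replicate 1, and Ppara (4.93) in replicate 2, where the other arrays were at the floor. Pak4 (7.53) and the cytosolic ribosome score (-0.10) were low in replicate 2.

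In vehicle hearts, Tpm2 (9.01) was high and Atp6v0e2 (8.70), Nppa (14.39) and the heat shock score (-0.12) were low in replicate 1. The immediate early score (0.18) was high in replicate 2. Myh7 (14.05) and Rpl5 (12.47) were low in replicate 3, and Cidea (10.88) and Crygs (5.09) in replicate 4. The other 3 vehicle hearts measured 9.01 to 9.05 for Atp6v0e2, so the flagged array makes its paricalcitol response smaller. For Crygs they measured 5.76 to 5.81, so the flagged array makes its response larger.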

How the results depend on the processing

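The interaction count of 0 became 1 without equalisation of the arrays (Crygs) and 0 in the other scalings, pseudocounts 4 and 64, probe set choices, array weights and the red cell score as a covariate, among brighter genes only, without a variance trend and on the 15 arrays alone. With the replicate number as a block it became 1 (C5ar1, -0.85, adjusted p 0.0363, limma) and the count without enalapril 14. The labels do not pair rats by number. Same-numbered rats correlated at -0.08, 0.06 and -0.13 between combination and enalapril. Between paricalcitol and vehicle the values were 0.22, 0.36, -0.13 and 0.12. Between combination and paricalcitol every number correlated above 0.1 (0.31 to 0.56), and both of these groups enter the interaction. The main model has no term for the replicate number, and what these correlations reflect was not tested. Leaving out single arrays gave 0 to 2 interactions: 2 without enalapril replicate 2 (Mov10l1 and Nell2, both near the floor) and 1 without combination replicate 3 (Lss).

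The response with enalapril passed in 1 gene with pseudocount 4, and in 0 to 2 without single arrays. The response without enalapril passed in 71 genes with median centring, 9 among brighter genes only, 4 with probe sets tested singly, 1 without equalisation, with cyclic loess or with no variance trend, and 0 to 10 without single arrays. Opposed genes numbered 19 among brighter genes only, 45 to 75 in the other planned settings with all arrays, and 33 to 92 without single arrays. Those without overlap numbered 7 among brighter genes only and 22 to 43 without single arrays, where fewer arrays make overlap rarer.

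After seeing the data, the 5 arrays with low red cell scores were left out together. This gave 0 interactions, 5 and 45 genes with and without enalapril, 152 opposed and 581 without overlap, on groups of 2 to 4 arrays. Col1a1 and Col3a1 then turned to 0.30 and 0.23.

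Values near 0 turned sign: Vdr (-0.05) without equalisation, Cox5b (0.04) and Myh7 (0.10) with median centring, and Ace (0.12) with probe sets averaged. Without single arrays the interaction ran from -0.28 to 0.11 for Ace, -0.45 to 0.13 for Ccn2, -0.06 to 0.30 for Vdr, -0.62 to 0.01 for Col1a1, -0.36 to 0.11 for Col3a1 and -1.54 to 0.12 for Fos. The causes were not tested. Single genes were checked only for a turned sign or a changed test result, and list medians only for a move beyond the spread of the list score. Over the settings with 1 value per gene, 64 list medians moved by more than that spread. For single genes, 2 values passed the test and 18 turned sign. The other 3700 values showed none of these changes, but sizes of genes could still change. The interaction ran from 0.61 to 3.79 for Slx9 and from 0.63 to 2.61 for Exoc8. Genes near the floor, such as Slx9 and Exoc8, are limited by signal over background.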
